A study of Mus musculus with 6 samples.

Results

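Expression of 10 genes of the smooth muscle and myoepithelial contractile apparatus was compared between E0771-HML2 cells and the parental E0771 cells from which they were selected. The genes were Acta2, Actg2, Tagln, Tagln2, Cnn1, Cnn2, Myl9, Mylk, Tpm1 and Tpm2, out of 18193 genes represented on the array by probe sets with 1 gene symbol. E0771 cells derive from a mammary tumour of a C57BL/6 mouse. The HML2 group was a population of E0771 cells recovered from the lungs of C57BL/6 mice after growth in the mammary fat pad, with that passage repeated, and the parental group was unselected E0771 cells. Neither group carried a genetic modification or a drug treatment that the labels name. Each group had 3 cultures, described as biological replicates. How many animals or clones contributed to HML2 is not stated in the labels, and the spread behind each p-value is that between cultures, which may be technical. All cells had been cultured for 3 days in medium with 10% serum, and 15 ug of total RNA per culture was hybridised to its own Affymetrix mouse expression array.

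Smooth muscle and myoepithelial cells contract when myosin pulls on actin filaments of the smooth muscle type. Calcium acts through myosin light chain kinase, which phosphorylates the regulatory light chain, while tropomyosins, calponins and transgelins lie along the actin filaments and tune their stability and their access to myosin. Many of these genes are switched on by serum response factor (SRF) with coactivators of the myocardin family, some of which respond to the state of the actin pool. In the mammary gland such genes mark the myoepithelial layer, and outside muscle several of them also serve in the stress fibres of fibroblasts and cultured cells.

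The short sequence that SRF recognises is called the CArG box, and it was searched as CC, 6 bases that are each A or T, and GG. RefSeq promoters of assembly GRCm38.p6, from 250 bases before to 50 bases after the annotated start, were found for 8 of the 10 genes. Actg2 and Tagln had no entry. An exact CArG box stood in 2 of these 8 promoters, those of Myl9 and Cnn2, and in 1.63% of the 32851 promoters in the table. A CArG box with 1 base different stood in 3 of the 8, those of Acta2, Myl9 and Tpm1, and in 19.9% of all promoters. The M-CAT element CATTCC, which TEAD factors bind, was found on either strand in 4 of the 8, those of Acta2, Tagln2, Mylk and Tpm1, and in 14.7% of all promoters. No matches overlapped in the members' promoters. The 3 promoters below belong to both genes with the largest decreases in HML2 cells, Acta2 and Myl9, and to Cnn2, which held an exact box but did not pass the test. They are written 5′ to 3′ on the gene's strand, with CArG boxes, CArG boxes with 1 base different and M-CAT elements in capitals.
Acta2, chr19:34255324-34255623, minus strand: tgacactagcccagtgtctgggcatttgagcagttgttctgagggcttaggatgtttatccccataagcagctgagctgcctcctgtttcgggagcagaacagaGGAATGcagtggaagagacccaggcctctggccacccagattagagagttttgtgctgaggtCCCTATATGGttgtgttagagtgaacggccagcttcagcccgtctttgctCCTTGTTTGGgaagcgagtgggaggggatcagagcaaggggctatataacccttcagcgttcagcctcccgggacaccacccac
Myl9, chr2:156775214-156775513, plus strand: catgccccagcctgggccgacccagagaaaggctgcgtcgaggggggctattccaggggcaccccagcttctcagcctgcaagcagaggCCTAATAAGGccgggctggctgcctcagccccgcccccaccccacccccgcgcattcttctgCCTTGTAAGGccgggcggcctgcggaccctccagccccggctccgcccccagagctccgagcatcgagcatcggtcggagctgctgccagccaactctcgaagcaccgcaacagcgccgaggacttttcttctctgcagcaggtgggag
Cnn2, chr10:79988350-79988649, plus strand: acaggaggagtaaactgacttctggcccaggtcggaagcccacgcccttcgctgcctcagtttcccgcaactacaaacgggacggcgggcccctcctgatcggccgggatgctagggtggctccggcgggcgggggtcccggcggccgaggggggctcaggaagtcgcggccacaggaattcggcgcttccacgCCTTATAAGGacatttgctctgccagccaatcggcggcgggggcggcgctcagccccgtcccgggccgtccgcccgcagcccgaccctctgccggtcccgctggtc
In the Acta2 promoter the capitals mark the M-CAT element at position -146 and CArG boxes with 1 base different at -84 and -34, counted to the first base of the match with -1 just before the start. In the Myl9 promoter the exact box began at -161 and the box with 1 base different at -99, and in the Cnn2 promoter the exact box began at -56. A match describes letters in a window and does not show that a factor binds there.

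The arrays gave a MAS5 signal per probe set, a background-corrected brightness scaled to a trimmed mean of 500 on all 6 arrays. Probe sets for bacterial tryptophan genes, for which mouse RNA holds no target, had signals of 1.97 to 36.2 and gauge the background. The 3'-to-5' signal ratio of Actb control probe sets, a measure of RNA integrity, was 1.39, 1.36 and 1.39 on the HML2 arrays against 1.53, 1.41 and 1.45 on the parental arrays. The difference gave an exact two-sided permutation p = 0.1, the smallest that 3 arrays against 3 allow, and the Gapdh ratio gave p = 0.7. Signals were compared as log2(signal + 50) for genes with a mean signal of at least 100. Of the 10 genes 7 passed that filter, together with 9361 genes in all. Differences are HML2 minus parental on that scale, which understates changes of dim genes, and each gene is represented by 1 probe set, chosen for the highest average on the log2 scale among those whose mean signal reached 100.

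Acta2, Myl9, Mylk and Tpm2 fell in HML2 cells, and no contractile gene rose. For each of these 4 genes the HML2 mean also reached the filter, so none passed it through the parental arrays alone. The calls were made with limma without the replicate number (Benjamini-Hochberg adjusted p below 0.05 over all genes tested). In this fit 4 of the 7 tested genes were called lower and 0 higher. Among all 9361 genes, 14.9% were called lower and 12.3% higher, 27.2% in either direction. The median log2 difference was -1.40 over the 7 genes and -0.02 over all genes tested. For the same 4 genes all HML2 arrays lay below all parental arrays, which held for 23.8% of all genes tested. With the replicate number as a block, Tagln2 and Tpm1 were called lower as well, when 19.6% of all genes tested were called lower. In RNA from whole cultures, fewer cells that express a gene and less RNA per cell cannot be told apart.

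**Figure D1:**
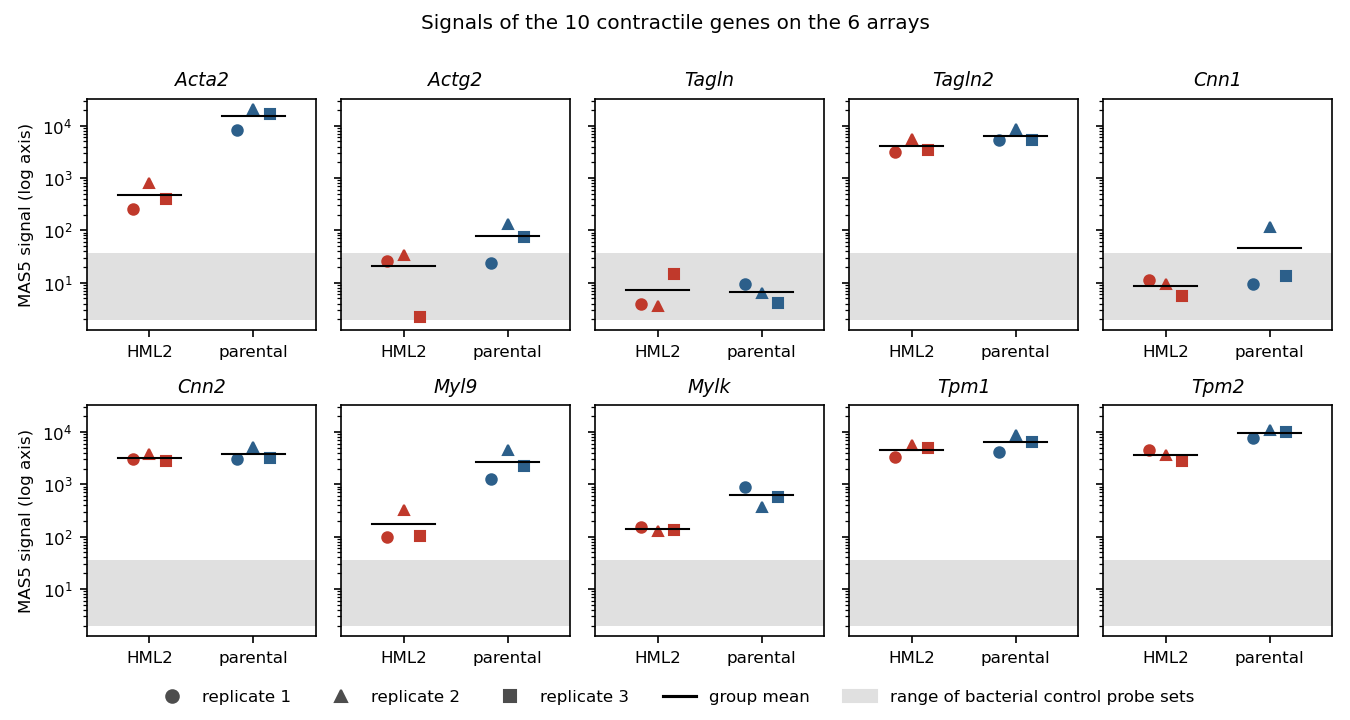
MAS5 signal (log axis) of the 10 contractile genes on the 3 HML2 arrays (left, red) and the 3 parental arrays (right, blue); symbols give the replicate number, black lines the group means and the grey band the range of bacterial control probe sets (1.97 to 36.2). Acta2, Myl9, Mylk and Tpm2 show no overlap between the groups, and every Tagln point lies in the grey band.

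The actins of smooth muscle differed in how brightly they were detected. Acta2 encodes smooth muscle alpha-actin, the main actin of vascular smooth muscle and of myofibroblast stress fibres. Its signals were 257, 798 and 391.9 on HML2 arrays 1 to 3, against 8236, 20497 and 17109 on parental arrays 1 to 3. The highest HML2 signal was thus far below the lowest parental signal. The means were 482 ± 282 in HML2 cells and 15281 ± 6332 in parental cells (SD, n = 3 each), a 31.7-fold lower mean signal and a log2 difference of -4.88 ± 0.41 (SE, 95% interval -5.82 to -3.93, limma adjusted p = 1.5e-04). All the HML2 signals were still above the bacterial controls. The probe set's name marks it as one whose probes may match several transcripts, and the other 2 Acta2 probe sets were too dim to pass the filter. One of those had 7.21, 1.16 and 3.51 on HML2 arrays against 42.8, 160 and 38.3 on parental arrays, without overlap. The remaining one had signals between 1.93 and 21.9 on all arrays.

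Actg2 encodes smooth muscle gamma-actin, the enteric form. It had 26.3, 33.96 and 2.23 on HML2 arrays against 23.4, 132.6 and 73.7 on parental arrays. The groups overlapped, and only parental arrays 2 and 3 exceeded the range of the bacterial controls. Actg2 did not pass the signal filter. Without a filter its log2 difference was -0.77 ± 0.34 (SE, limma adjusted p = 0.20).

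Regulation of myosin was represented by the light chain gene and the kinase gene. Myl9 encodes the smooth muscle regulatory light chain, the part of myosin II whose phosphorylation starts contraction. It had signals of 99.1, 323 and 103 on HML2 arrays against 1267, 4501 and 2233 on parental arrays. No HML2 array came near a parental one, although each group spanned more than 3-fold, with 3.26-fold between the highest and lowest HML2 arrays and 3.55-fold between the parental ones. Mean signals were 175 ± 128 in HML2 cells and 2667 ± 1660 in parental cells (SD, n = 3 each), 15.2-fold lower, with a log2 difference of -3.55 ± 0.48 (SE, 95% interval -4.64 to -2.46, limma adjusted p = 0.0014).

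Mylk encodes myosin light chain kinase, which phosphorylates that light chain. Its signals were 153, 126 and 137 on HML2 arrays against 897, 377 and 572 on parental arrays. The HML2 arrays lay within 1.21-fold of each other, while the parental arrays spread over 2.38-fold with parental array 1 the highest. The mean was 139 ± 13.5 in HML2 cells and 615 ± 263 in parental cells (SD, n = 3 each), 4.44-fold lower, with a log2 difference of -1.74 ± 0.27 (SE, 95% interval -2.36 to -1.13, limma adjusted p = 0.0026). A dimmer Mylk probe set, which passed the filter through the parental arrays alone, had 69.5, 90.9 and 74.1 on HML2 arrays against 528, 220.4 and 329 on parental arrays, with a log2 difference of -1.61 ± 0.27 (SE). Mylk lies on chromosome 16, where 124 of 302 tested genes were called lower (41.1%, against 14.9% of all genes) and 5 higher, with a median log2 difference of -0.42. None of the other 9 contractile genes lies on that chromosome. No such count was made for other chromosomes.

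Of the tropomyosin genes Tpm1 and Tpm2, Tpm2 was called lower in the main fit and Tpm1 was not. Whether their differences were unlike was not tested. Tropomyosins are coiled-coil dimers that run along the actin filament, and both genes make muscle and non-muscle isoforms by alternative splicing, which these probe sets do not separate. Tpm2, the beta-tropomyosin gene, had signals of 4521, 3599 and 2744 on HML2 arrays against 7632, 10704 and 10224 on parental arrays. All HML2 values were below all parental values. Means were 3621 ± 889 in HML2 cells and 9520 ± 1652 in parental cells (SD, n = 3 each), 2.63-fold lower, with a log2 difference of -1.40 ± 0.20 (SE, 95% interval -1.85 to -0.95, limma adjusted p = 0.0017). Of the 4 Tpm2 probe sets, the other two bright ones gave -1.38 and -1.34, and the dimmest, at 83.1 to 169 on all arrays, gave -0.37 and was not called (limma on every probe set, adjusted p = 0.18).

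Tpm1, the alpha-tropomyosin gene, had 3268, 5749 and 4863 on HML2 arrays against 4141, 8816 and 6497 on parental arrays. Here the groups overlapped, since HML2 arrays 2 and 3 exceeded parental array 1. The means were 4627 ± 1258 in HML2 cells and 6485 ± 2338 in parental cells (SD, n = 3 each), and the log2 difference of -0.45 ± 0.29 (SE, 95% interval -1.11 to 0.20) did not pass the test (limma adjusted p = 0.27). HML2 was below parental within each replicate number, by log2 differences of -0.34, -0.61 and -0.41 for numbers 1 to 3. With the replicate number as a block Tpm1 was called lower (limma adjusted p = 0.0068). Without HML2 replicate 1 the difference was -0.23, without parental replicate 1 it was -0.74, and without parental replicate 2 it was -0.20, none of them called.

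Calponins and transgelins bind actin filaments. Cnn1 and Tagln are used as markers of differentiated smooth muscle, whereas Cnn2 and Tagln2 are expressed more widely. Cnn1 had 11.2, 9.26 and 5.57 on HML2 arrays against 9.24, 114 and 13.2 on parental arrays. Parental array 2 alone stood above the bacterial controls. Tagln had 3.84, 3.56 and 14.5 on HML2 arrays against 9.34, 6.48 and 4.07 on parental arrays, all within the range of the controls. Neither passed the filter, and without a filter their log2 differences were -0.53 ± 0.35 for Cnn1 and 0.01 ± 0.12 for Tagln (SE, limma adjusted p = 0.42 and 0.96).

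The widely expressed relatives were bright and overlapped between the groups. Tagln2 had 3093, 5484 and 3506 on HML2 arrays against 5298, 8690 and 5224 on parental arrays. HML2 array 2 was above parental arrays 1 and 3, and the other HML2 arrays were below all parental arrays. The means were 4028 ± 1278 in HML2 cells and 6404 ± 1980.3 in parental cells (SD, n = 3 each), with a log2 difference of -0.66 ± 0.25 (SE, 95% interval -1.24 to -0.09) that did not pass the adjusted test (limma adjusted p = 0.086). Tagln2 was called lower with the replicate number as a block (adjusted p = 0.0012) and without HML2 replicate 2 (a difference of -0.91, adjusted p = 0.028), both by limma. Without parental replicate 2 the difference was -0.43. Another bright Tagln2 probe set had a difference of -0.19 ± 0.18 that was not called (limma on every probe set, adjusted p = 0.48).

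Cnn2 had 3063, 3793 and 2755 on HML2 arrays against 3100, 5201 and 3170 on parental arrays. Apart from parental array 2 the arrays of both groups lay in 1 range. Means were 3204 ± 533 in HML2 cells and 3824 ± 1193 in parental cells (SD, n = 3 each), and the log2 difference of -0.22 ± 0.21 (SE, 95% interval -0.71 to 0.26) did not pass the test (limma adjusted p = 0.47). Without parental replicate 2 it was 0.02.

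**Figure D2:**
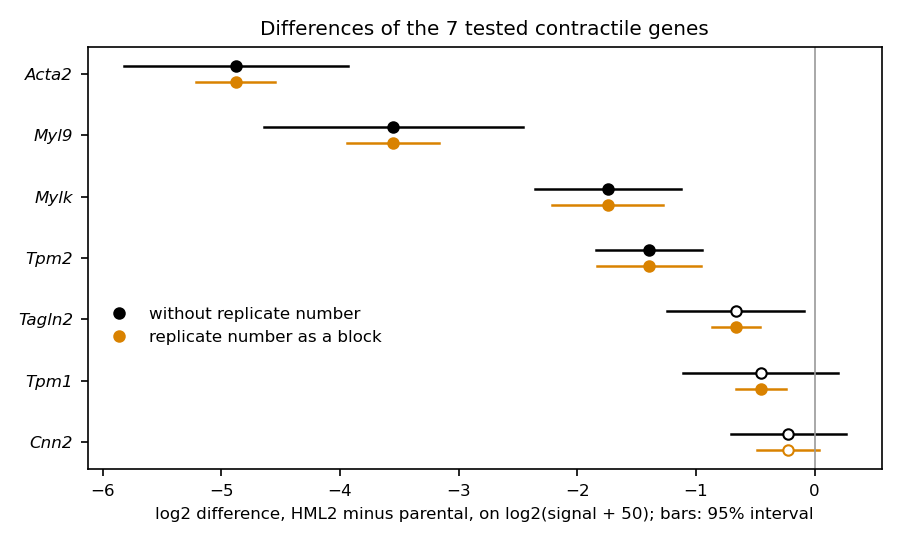
Log2 differences (HML2 minus parental, on log2(signal + 50)) of the 7 tested contractile genes with 95% intervals from limma, without the replicate number (black) and with it as a block (orange); filled points have an adjusted p below 0.05. Acta2, Myl9, Mylk and Tpm2 are called by both, Tagln2 and Tpm1 with the block alone, and Cnn2 by neither.

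In all, the 10 genes had 22 probe sets with 1 symbol, of which 14 passed the filter. When every probe set was tested on its own, 7 of the 14 were called lower and 0 higher, against 14.1% of all probe sets called lower. These 7 were 1 of Acta2, 1 of Myl9, 2 of Mylk and 3 of Tpm2, and they include the dimmer Mylk probe set that passed through the parental arrays alone. With the replicate number as a block, 6 of the 7 tested genes were called lower, and 19.6% of all genes tested were.

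Most of these genes also varied together between arrays of the same group. HML2 replicate 2 exceeded the mean of HML2 replicates 1 and 3 in 6 of the 7 tested genes, with a median log2 gap of 0.52. Parental replicate 2 likewise exceeded parental replicates 1 and 3 in 6 of 7, with a median gap of 0.72. The corresponding medians over all genes tested were 0.015 for HML2 and -0.011 for parental. The widest gap was that of Myl9, at 1.30 among HML2 arrays and 1.39 among parental arrays. Acta2 followed at 1.2 among HML2 arrays and 0.79 among parental arrays. Mylk went the other way, at -0.15 among HML2 arrays and -0.85 among parental arrays. Medians for replicate 1 were below 0, at -0.50 in HML2 cells and -0.45 in parental cells. The height of parental replicate 2 was shared by related genes read below. It exceeded parental replicates 1 and 3 in 9 of 11 tested paralogs and 16 of 19 tested other smooth muscle genes. HML2 replicate 2 exceeded HML2 replicates 1 and 3 in 6 of 11 and 9 of 19. The share of all genes tested that did so was not counted. The labels do not say what the replicate number stands for. Without both arrays numbered 2, the differences were -5.02 for Acta2, -3.52 for Myl9, -1.98 for Mylk and -1.31 for Tpm2, all called (limma adjusted p = 0.0023, 0.0028, 0.011 and 0.030), and Tagln2 was called as well.

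**Figure D3:**
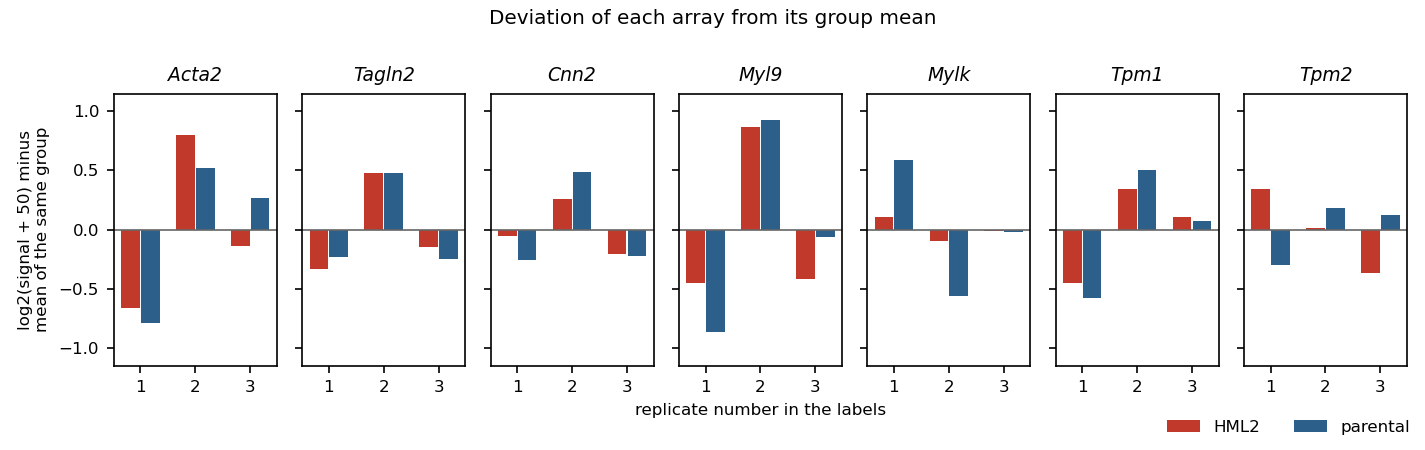
Log2(signal + 50) of each array minus the mean of its own group, by replicate number, for the 7 tested genes (HML2 red and left, parental blue and right). Acta2, Tagln2, Cnn2, Myl9, Tpm1 and, by little in HML2, Tpm2 are above their group mean on array 2 of both groups, whereas Mylk is below it.

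The 3 genes whose profile over the 6 arrays, taken relative to the parental mean, was closest to that of Acta2 were Stox2, Thbs1 and Col6a3. Their root mean square differences from the Acta2 profile were 0.56, 0.60 and 0.62 on the log2 scale. The size of the group difference counts in this likeness. Stox2 and Thbs1, with HML2 means of 39.2 and 30.0, passed the filter through the parental arrays alone. For these genes the difference depended on the offset, at -5.32 and -5.13 with an offset of 16 and at -4.02 and -3.69 with 100. Thbs1 encodes the matricellular protein thrombospondin-1 and Col6a3 a chain of collagen VI. Thbs1 had 22.6, 30.4 and 36.9 on HML2 arrays against 1194, 2381 and 1372 on parental arrays, with parental array 2 the highest. Stox2 and Col6a3 were highest on parental array 1, with 2210, 2132 and 2134 for Stox2 and 7018, 5883 and 5352 for Col6a3 on the parental arrays. Of the other contractile genes Myl9 came closest, in place 12 of 9360 other genes at 0.97, and Mylk and Tpm2 followed in places 174 and 240.

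Among 15 paralogs of the contractile proteins, from the general cytoskeleton and striated muscle, 11 were tested. Of these 1 was lower, 1 higher and 9 not called, with a median log2 difference of -0.10. Among all genes tested, 14.9% were lower and 12.3% higher. Cytoplasmic beta-actin, Actb, had means of 33259 ± 3685 in HML2 cells and 34398 ± 5439 in parental cells (SD, n = 3 each). Actb had a log2 difference of -0.04 (95% interval -0.33 to 0.25) and cytoplasmic gamma-actin, Actg1, one of 0.01 (95% interval -0.27 to 0.29), and neither passed the test (limma adjusted p = 0.83 and 0.97). The sign turned with median centring for Actb, with array weights for Actg1, and with single arrays left out for both. The calponin gene Cnn3 had a difference of -0.20 (95% interval -0.42 to 0.02, limma adjusted p = 0.16), and was called lower when all its probe sets were averaged.

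The paralog that fell was Actc1, the cardiac muscle actin gene. It had 49.3, 4.96 and 43.9 on HML2 arrays against 140.1, 690.2 and 306 on parental arrays, a log2 difference of -2.20 ± 0.46 (SE, limma adjusted p = 0.0092). Here too parental array 2 was the highest, but HML2 array 2 was the lowest of the HML2 arrays. Without both arrays numbered 2 the difference was -1.43, still called (limma adjusted p = 0.048). The tropomyosin gene Tpm3 rose, with 14982, 16323 and 15841 on HML2 arrays against 10966, 12748 and 12293 on parental arrays, a log2 difference of 0.39 ± 0.09 (SE, limma adjusted p = 0.017). Its call was lost without HML2 replicate 2 or 3 or parental replicate 1 or 3 (adjusted p = 0.056 to 0.061), with differences of 0.33 to 0.41.

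Among 32 other genes of the smooth muscle apparatus, 31 were analysed here and 19 tested, and 9 were lower and 2 higher, with a median log2 difference of -0.48. Of all 9361 genes tested, 14.9% were lower and 12.3% higher. The largest decreases on this scale were in Synpo2, Ldb3 and Csrp1. Synpo2 encodes an actin-bundling protein of the Z-disc (-1.99 ± 0.19). Ldb3 is a Z-disc gene (-1.73 ± 0.23) and Csrp1 a LIM-domain gene of smooth muscle (-1.67 ± 0.26, all SE). Their size and order depended on the offset. Synpo2, Ldb3 and Csrp1 had differences of -2.74, -2.46 and -1.76 with an offset of 16, and of -1.45, -1.24 and -1.56 with 100. Synpo2 had 17.0, 18.7 and 28.2 on HML2 arrays against 258, 214 and 225 on parental arrays, so it passed the filter through the parental arrays alone, as did Ldb3 and, among the paralogs, Actc1. Without a signal filter Ldb3 was represented by another probe set, whose mean signal fell just short of 100, and its difference was -0.79. Csrp1 had 303, 499.9 and 314 on HML2 arrays against 1010.1, 1827 and 1087 on parental arrays, without overlap and with array 2 the highest in both groups. The palladin gene Palld (-1.08), the filamin gene Flna (-0.91), the LIM-domain gene Csrp2 (-0.87) and the vinculin gene Vcl (-0.56) also fell. Csrp2 was not called without parental replicate 3 (-0.82, adjusted p = 0.054). The focal adhesion genes Tes (1.23 ± 0.13) and Zyx (0.68 ± 0.14) rose, both SE. Smooth muscle myosin heavy chain, Myh11, the most specific marker of the lineage, had 9.99, 11.8 and 10.6 on HML2 arrays against 9.16, 9.57 and 7.44 on parental arrays, within the range of the bacterial controls.

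The genes for SRF and its coactivators were read singly. Srf had 348, 636 and 635 on HML2 arrays against 918, 1184 and 1235 on parental arrays. The groups did not overlap, and the log2 difference was -1.01 ± 0.23 (SE, limma adjusted p = 0.014). It was not called without parental replicate 2 (-0.96, adjusted p = 0.052) or parental replicate 3 (-0.94, adjusted p = 0.066), and with all its probe sets averaged the difference was -0.49. Mrtfb, a coactivator of SRF on chromosome 16 as Mylk is, had 1158, 1978 and 1764 on HML2 arrays against 3296, 2759.9 and 3302 on parental arrays, and fell by 0.94 ± 0.20 (SE, limma adjusted p = 0.0091).

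The other coactivator gene tested, Mrtfa, had a difference of -0.57 ± 0.16 (SE, limma adjusted p = 0.028), and its call was lost without HML2 replicate 2 or any one of the parental arrays (adjusted p = 0.061 to 0.11). Myocd, the muscle-restricted coactivator, had signals of 4.08 to 17.4 on all arrays and was not tested. Klf4, which encodes a factor that represses smooth muscle genes in vascular smooth muscle, also fell, with a log2 difference of -1.29 ± 0.21 (SE, limma adjusted p = 0.0029).

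Over both lists, the paralogs and the other smooth muscle genes, 10 of 30 tested genes were lower and 3 higher. The median log2 difference was -0.20, and 14.9% and 12.3% of all genes tested were lower and higher. Among the 10, Actc1, Synpo2 and Ldb3 passed the filter through the parental arrays alone. With a minimum mean signal of 200, which Actc1 still passed, 7 were lower and 3 higher. In that setting 14.8% of all genes were called lower and 13.3% higher. At the filter of 100 and without both arrays numbered 2 there were 5 lower and 1 higher, with 7.06% of all genes called lower. Of the genes named above, Tpm3, Csrp2, Palld, Vcl, Zyx, Srf and Mrtfa were then not called (limma adjusted p = 0.052 to 0.16).

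**Figure D4:**
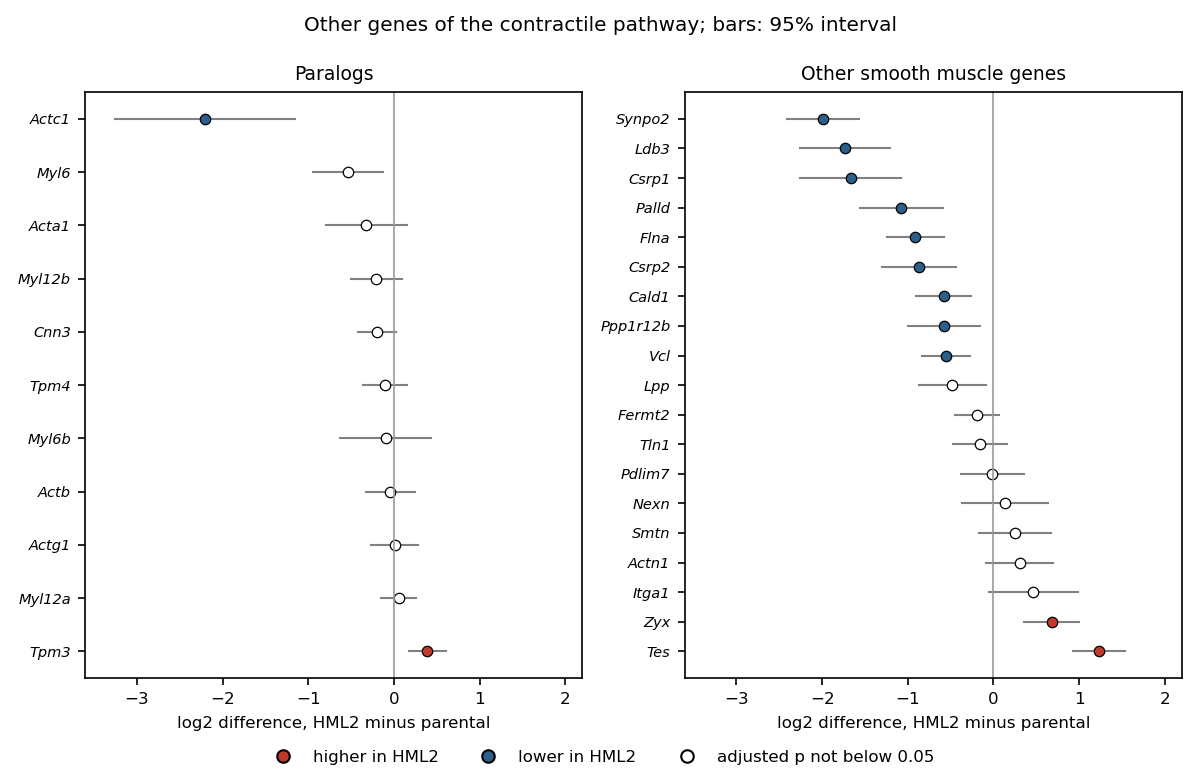
Log2 differences (HML2 minus parental) with 95% intervals of the tested genes of the paralogs (left) and of the other smooth muscle genes (right). Red points are higher and blue points lower in HML2 cells at an adjusted p below 0.05, and open points did not pass; 10 genes are blue and 3 red.

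Markers of the cell types that carry a contractile apparatus were read on the same arrays. None of 7 myoepithelial and basal markers passed the signal filter, and their summed signal was 125 to 135 on HML2 arrays and 92.5 to 209.5 on parental arrays. Krt5, a keratin of the basal layer, averaged 58.5 ± 4.04 in HML2 cells and 26.1 ± 12.6 in parental cells (SD, n = 3 each), with all HML2 arrays higher and above the bacterial controls. The basal keratin genes Krt14 and Krt17 averaged 8.53 ± 5.99 and 13.1 ± 14.8 in HML2 cells, and 14.4 ± 6.97 and 6.61 ± 6.19 in parental cells (SD, n = 3 each). Trp63, the basal transcription factor gene, averaged 12.6 ± 6.64 in HML2 cells and 79.4 ± 32.4 in parental cells (SD, n = 3 each), with all HML2 arrays lower and all parental arrays above the bacterial controls. Apart from Cnn1 on parental array 2, the smooth muscle markers Cnn1, Tagln and Myh11 were within the range of the bacterial controls.

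The counts of called markers stand against 14.9% of all genes tested called lower and 12.3% called higher. Of 8 markers of vascular smooth muscle and pericytes, 3 were tested and 2 were lower, Rgs5 (-1.96) and Mcam (-1.88). Both passed the filter through the parental arrays alone. The third, Pdgfrb, had a difference of -1.18, overlapped between the groups and was not called (limma adjusted p = 0.053). Cspg4, Notch3, Kcnj8, Abcc9 and Des did not reach the filter and overlapped as well. Of these, Cspg4 and Abcc9 had higher means in HML2 cells, and Notch3, Kcnj8 and Des lower ones. The sum over the 8 markers was 562 to 1272 on HML2 arrays and 1660 to 2430 on parental arrays. Pdgfrb was the largest part of that sum on every array. Of 8 fibroblast markers 1 was tested and lower, Pdgfra (-1.09). Pdgfra made up most of the summed signal, 907 to 1169 on HML2 arrays and 1869 to 2833 on parental arrays. The other 7 markers did not reach the filter. Of those, Col1a1 averaged 20.8 ± 12.1 in HML2 cells and 71.8 ± 6.66 in parental cells, and Postn 16.3 ± 11.1 in HML2 cells and 91.4 ± 45.2 in parental cells (SD, n = 3 each), both with all HML2 arrays lower. Col1a2, Dcn, Lum, Thy1 and Fap overlapped between the groups. Of 6 striated muscle markers 3 were tested and 2 lower, Actc1 and the creatine kinase gene Ckm (-2.54). Actc1 passed the filter through the parental arrays alone. The sum over the 6 markers was 294 to 411 on HML2 arrays and 1571 to 2017 on parental arrays. Ckm was its largest part on every array, at 137 to 204 on HML2 arrays and 1068 to 1482 on parental arrays. Acta1 overlapped between the groups and was not called (limma adjusted p = 0.28). Myog, Tnnt3 and Myl1 also overlapped and averaged 4.23 to 33.0. Of 5 luminal markers 2 were tested and Krt8 rose (1.87), while Epcam had a difference of -0.45 with all HML2 arrays lower and was not called (limma adjusted p = 0.12). Krt8 averaged 4175 in HML2 cells and 1095 in parental cells and made up most of the luminal sums, 3782 to 5057 on HML2 arrays and 1266 to 1355 on parental arrays. Krt18, which did not reach the filter, averaged 86.0 in HML2 cells and 34.2 in parental cells, with all HML2 arrays higher. Krt19 and Cdh1 did not reach it either and overlapped between the groups. The part of these cell states in the contractile differences was not tested. None of 3 leukocyte markers, of 2 endothelial markers or of 3 lung epithelial markers was called, and 1 of these, Sftpb, passed the filter. Their sums were 72.5 to 226 on HML2 arrays and 73.7 to 89.8 on parental arrays for leukocytes, 43.3 to 77.4 on HML2 arrays and 20.2 to 41.96 on parental arrays for endothelium, and 121 to 206 on HML2 arrays and 98.8 to 180 on parental arrays for lung epithelium.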

How the data were processed

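Messenger RNA was measured in 3 HML2 and 3 parental cultures, 1 Affymetrix array each. The values deposited by the authors are linear intensities. The submitters' processing notes name MAS5 as the tool, and its version was not given. The trimmed mean, without the lowest and highest 2%, was 500 on every array, so differences in total messenger RNA are removed. Array number limits the precision.

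Of 45101 probe sets, 64 were controls, 34945 had 1 gene symbol, 932 had several and 9160 were unlisted in the array annotation. RefSeq genes of GRCm38.p6 supplied current symbols (34741 probe sets matched) and chromosomes.

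A probe set was kept where its signal averaged 100 or more. Values were taken as log2(signal + 50), and the kept probe set that was highest on average on this scale represented its gene. A model of the groups without covariates was fitted in limma 3.58.1 (R 4.3.3), moderated by eBayes with a trend on intensity, with Benjamini-Hochberg adjustment over all genes. The fit was tested on simulated data. Alternatives were other offsets, filters, scalings and probe set rules, array weights, the replicate number as a block, and leaving out each array. Leaving out both arrays numbered 2 and testing every probe set were chosen after seeing the data.

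Deviations from group means of same-numbered arrays correlated at 0.45, 0.34 and 0.24 across genes, all above the bound of 0.1. The number was therefore used as a block in an alternative, while the main fit left it out. HML2 array 3 correlated as closely with parental array 2 (0.241) as with parental array 3 (0.239), so its pairing is not set apart. The labels do not name what a number stands for.

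The members and lists were chosen with earlier results of these data known. The naming rule took all members, up to 4 called genes with the largest difference per list (filled to 2 by the brightest) and the 3 profiles closest to Acta2. One list is not reported here, and the genes of SRF, its coactivators and Klf4 are given singly. Further listed genes were picked with their values in view, to complete small counts or to show genes that did not pass.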

Additional observations from a re-analysis of the deposited data

How the results depend on the processing

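Acta2, Myl9, Mylk and Tpm2 stayed lower and called under all 17 alternatives, with differences of -5.28 to -4.55, -3.99 to -3.09, -2.03 to -1.45 and -1.71 to -1.12. With the replicate number as a block, which narrows the errors of paired arrays, Tagln2 (-0.66) and Tpm1 (-0.45) were also called, and no other contractile gene changed its call. Tagln2 was called with array weights (-0.51) and without both arrays numbered 2 (-0.67), and leaving out single arrays gave -0.91 to -0.43. Leaving out single arrays gave -0.35 to 0.018 for Cnn2, whose sign turned without parental replicate 2. For Actb the same range was -0.13 to 0.082, with 0.015 after median centring and 0.0052 without both arrays numbered 2. For Actg1 it was -0.072 to 0.14, with -0.00016 under array weights. The paralogs and other smooth muscle genes had 13 called genes, 10 lower and 3 higher. Leaving out single arrays gave 9 to 13 called, 7 to 10 lower and 2 to 3 higher. Of all genes tested, 8.49% to 19.7% were then called lower and 6.3% to 16.8% higher. Array weights gave 20 called and 16 lower, when 28.1% of all genes were called lower and 25.9% higher. Without both arrays numbered 2 there were 6 called, 5 lower and 1 higher, when 7.06% of all genes were called lower and 4.44% higher. Tpm3 was not called without an intensity trend, nor Mrtfa without a signal filter (limma adjusted p = 0.052 and 0.068). The cause of these changes was not tested. Signals near the bacterial controls, as for Actg2, Cnn1 and Tagln, limit what can be said of those genes.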
